A study of Mus musculus with 3 samples.

Results

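The enzymes that hydroxylate and cross-link collagen are described here across the cells of mouse fracture callus. They are 10 named genes of the 32285 in the deposited matrices, namely the lysyl oxidases *Lox*, *Loxl1*, *Loxl2*, *Loxl3*, and *Loxl4*, the lysyl hydroxylases *Plod1*, *Plod2*, and *Plod3*, and the prolyl 4-hydroxylase subunits *P4ha1* and *P4ha2*. They were chosen by symbol for their biochemical role, and all 10 were matched. The study followed healing of a femoral fracture in C57BL/6 mice that received no treatment, with 1 droplet library of callus cells at each of day 7, day 10, and day 14. The cells had been sorted as live and negative for CD45, CD31, and TER119 to leave mesenchymal cells, and male and female mice were grouped together. The ages and the number of mice in each library were not stated for this experiment. Because each day had 1 library, no difference between days could be set against the variation between animals, and no p-values are given.

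Collagen chains are modified while they fold in the endoplasmic reticulum. Prolyl 4-hydroxylase, in which a P4ha catalytic subunit pairs with P4hb, hydroxylates prolines and thereby stabilizes the triple helix, and the lysyl hydroxylases (Plod enzymes) hydroxylate lysines, which then carry sugars or enter cross-links. After secretion the lysyl oxidases, which need copper, oxidize lysines and hydroxylysines of collagen and elastin to aldehydes that form the cross-links. In a healing fracture such enzymes work on the type I and type III collagen of the fibrous callus, the type II collagen of cartilage, the type X collagen of hypertrophic cartilage, and the type I collagen of new bone.

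The values are counts of unique molecular identifiers (UMIs), each of which stands for 1 captured mRNA molecule. Cells with no UMI of *Ptprc* (CD45) were placed in 5 classes by high levels of exactly 1 gene. These genes were *Aspn*, which marked the *Postn*+ osteoprogenitors of the study, *Cnmd* of chondrogenic cells, *Col10a1* of hypertrophic cartilage, *Ifitm5* of osteoblasts, and *Rgs5* of pericytes. The classes are ranges of 1 gene and not cell types. Of 5 other markers per class, all 5 were highest in their own class for *Cnmd* and *Ifitm5* on both days. For *Aspn* 4 of 5 were (*Prrx1* was higher in *Rgs5*-high cells), for *Rgs5* 4 of 5 (*Cspg4* was highest in *Cnmd*-high cells), and for *Col10a1* 3 of 5, since *Alpl* and *Ibsp* were highest in *Ifitm5*-high cells. The classes held 1313, 2330, 429, 145, and 70 cells at day 10, and 3078, 1294, 1076, 416, and 180 cells at day 14, in the order of the genes above, with class medians of 12522 to 19280.5 and 9202 to 21197 UMIs per cell. Cells that were high for more than 1 of these genes (200 and 145) and for none (2100 and 3491) were kept apart.

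The day 7 library went against its label as mesenchymal cells. Of its 7017 cells within the limits of the study, 6570 (93.6%) had a UMI of *Ptprc*, compared with 6 of 6593 at day 10 and 173 of 9853 at day 14. Only 72 cells of day 7 fell into 1 class (13, 47, 5, 7, and 0). In these classes the members are given as summed UMIs and not as levels. The summed level of 6 hematopoietic markers in the classes was 1546 to 1884 CPM (UMIs scaled to 1000000 per class) at day 7, 3.43 to 9.75 CPM at day 10, and 25.4 to 242 CPM at day 14, highest in *Aspn*-high cells, and *Ptprc* was at 0 by the rule. Pairs of libraries shared 29 to 42 barcodes.

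The levels below are CPM of UMIs summed over a class in 1 library. Intervals are 95% intervals (exact Poisson for levels, exact binomial for ratios and shares) and cover counting error only, not the variation between cells or animals. UMIs from the 3′ end are not scaled by transcript length, so each gene is compared with itself across classes.

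Each lysyl oxidase had its own order of the classes. *Lox* (ENSMUSG00000024529, chr18:52516067-52529867, GRCm38), which encodes the founding member of the family, had 634 CPM (622 to 645) at day 10 and 478 CPM (472 to 485) at day 14 in *Aspn*-high cells. It had 583 and 447 CPM in *Col10a1*-high cells and 641 and 634 CPM in *Ifitm5*-high cells. *Cnmd*-high cells had 148 and 130.3 CPM and *Rgs5*-high cells 72.4 and 54.5 CPM. *Lox* was thus high in the *Aspn*-high, *Col10a1*-high, and *Ifitm5*-high classes and low in the other two. Relative to *Aspn*-high cells it was 4.28- and 3.67-fold lower in *Cnmd*-high cells and 8.75- and 8.78-fold lower in *Rgs5*-high cells at day 10 and day 14. With doubled class cutoffs the log2 ratio of *Cnmd*-high to *Aspn*-high cells, averaged over both days, was -2.67 in place of -1.99, and 1594 of the 2521 cells above the *Cnmd* cutoff at day 10 lay within 2-fold of it. The *Ifitm5*-high level did not differ from the *Aspn*-high level beyond counting error at day 10 (log2 ratio 0.02, -0.06 to 0.09) and was above it at day 14 (0.41, 0.36 to 0.46). The *Col10a1*-high level was close to the *Aspn*-high level (log2 ratio -0.12 and -0.10), and the sign of that difference turned when the 50 most abundant genes were left out of the total.

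*Loxl1* (ENSMUSG00000032334, chr9:58287738-58313186), an enzyme known for its part in elastic fibers, was highest in *Aspn*-high cells. Its level there was 197 CPM (191 to 203) at day 10 and 220.1 CPM (216 to 225) at day 14. *Rgs5*-high cells followed with 97.6 and 68.8 CPM. The values were 27.7 and 26.2 CPM in *Cnmd*-high, 23.3 and 23.2 CPM in *Ifitm5*-high, and 10.4 and 9.69 CPM in *Col10a1*-high cells. The other 3 classes were therefore far below the *Aspn*-high class, 7.11- and 8.39-fold in *Cnmd*-high, 8.47- and 9.50-fold in *Ifitm5*-high, and 19.0- and 22.7-fold in *Col10a1*-high cells. With no limits on cells the last difference was smaller, -3.78 in place of -4.38 as a mean log2 ratio over both days. The *Cnmd*-high and *Ifitm5*-high levels did not differ beyond counting error on either day (log2 *Ifitm5*-high over *Cnmd*-high -0.25, -0.65 to 0.12, and -0.18, -0.44 to 0.08). *Rgs5*-high cells were 2.02- and 3.20-fold below *Aspn*-high cells, and the day 10 interval (log2 -1.33 to -0.71) included less than a 2-fold difference.

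*Loxl2* (ENSMUSG00000034205, chr14:69609068-69695834), known for cross-linking of basement membrane and fibrillar collagens, had 739 and 605 CPM in *Aspn*-high, 529 and 549 CPM in *Cnmd*-high, and 378 and 319 CPM in *Rgs5*-high cells. It had 253 and 171 CPM in *Ifitm5*-high and 226 and 188 CPM in *Col10a1*-high cells. The *Col10a1*-high and *Ifitm5*-high classes, which also held the most *Ibsp*, were thus lowest for *Loxl2*, at 3.27- and 3.22-fold and 2.92- and 3.54-fold below *Aspn*-high cells, and which of them was lower changed between the days. *Loxl3* (ENSMUSG00000000693, chr6:83034173-83052562), a paralog needed for palate and spine development in mice, had its highest level in *Cnmd*-high cells, 154 and 151 CPM. It had 115 and 85.9 CPM in *Aspn*-high, 95.4 and 82.0 CPM in *Rgs5*-high, 40.1 and 34.5 CPM in *Ifitm5*-high, and 28.2 and 31.0 CPM in *Col10a1*-high cells. *Loxl3* therefore dropped between the *Cnmd*-high and the *Col10a1*-high class, by 5.47-fold at day 10 and 4.86-fold at day 14. The *Aspn*-high and *Rgs5*-high levels of *Loxl3* did not differ beyond counting error on either day.

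*Loxl4* (ENSMUSG00000025185, chr19:42593982-42612813, minus strand) showed the widest range of the members over the classes and was highest in *Col10a1*-high cells. *Col10a1*-high cells had 439.5 CPM (425 to 455) at day 10 and 390.4 CPM (382 to 399) at day 14. *Ifitm5*-high cells had 54.2 and 50.8 CPM and *Cnmd*-high cells 31.7 and 31.8 CPM. *Aspn*-high cells had 4.04 and 4.55 CPM and *Rgs5*-high cells 5.48 and 3.18 CPM, the last from 5 and 6 UMIs. The *Col10a1*-high level was 109- and 85.9-fold above *Aspn*-high cells, 13.9- and 12.3-fold above *Cnmd*-high cells, and 8.11- and 7.68-fold above *Ifitm5*-high cells. The *Aspn*-high and *Rgs5*-high levels could not be told apart at this depth (log2 ratio 0.44, -1.22 to 1.72, and -0.52, -1.98 to 0.63).

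The share of cells with a *Loxl4* UMI gave the same order. After each cell was thinned to 2000 UMIs, 46.3% (41.4% to 51.2%) of *Col10a1*-high cells had one at day 10 and 46.0% (43.0% to 49.1%) at day 14, and 88.3% and 87.0% had one without thinning. In *Aspn*-high cells the thinned share was 0.765% and 1.04%. In *Cnmd*-high cells it was 5.19% and 4.90% and in *Ifitm5*-high cells 9.03% and 5.80%. Among the 173 *Ptprc*-positive cells of day 14, with a median of 9210.0 UMIs compared with 17616 in *Col10a1*-high cells, it was 4.73% (2.07% to 9.11%). At day 14 the shares of *Cnmd*-high and *Ifitm5*-high cells were therefore no higher than in *Ptprc*-positive cells beyond counting error, while both were above the share in *Aspn*-high cells (0.716% to 1.47%), which had a median of 14328 UMIs. Those *Ptprc*-positive cells also held 179 CPM of *Lox*, and the part of free RNA or of mixed droplets in these shares was not tested.

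**Figure D1:**
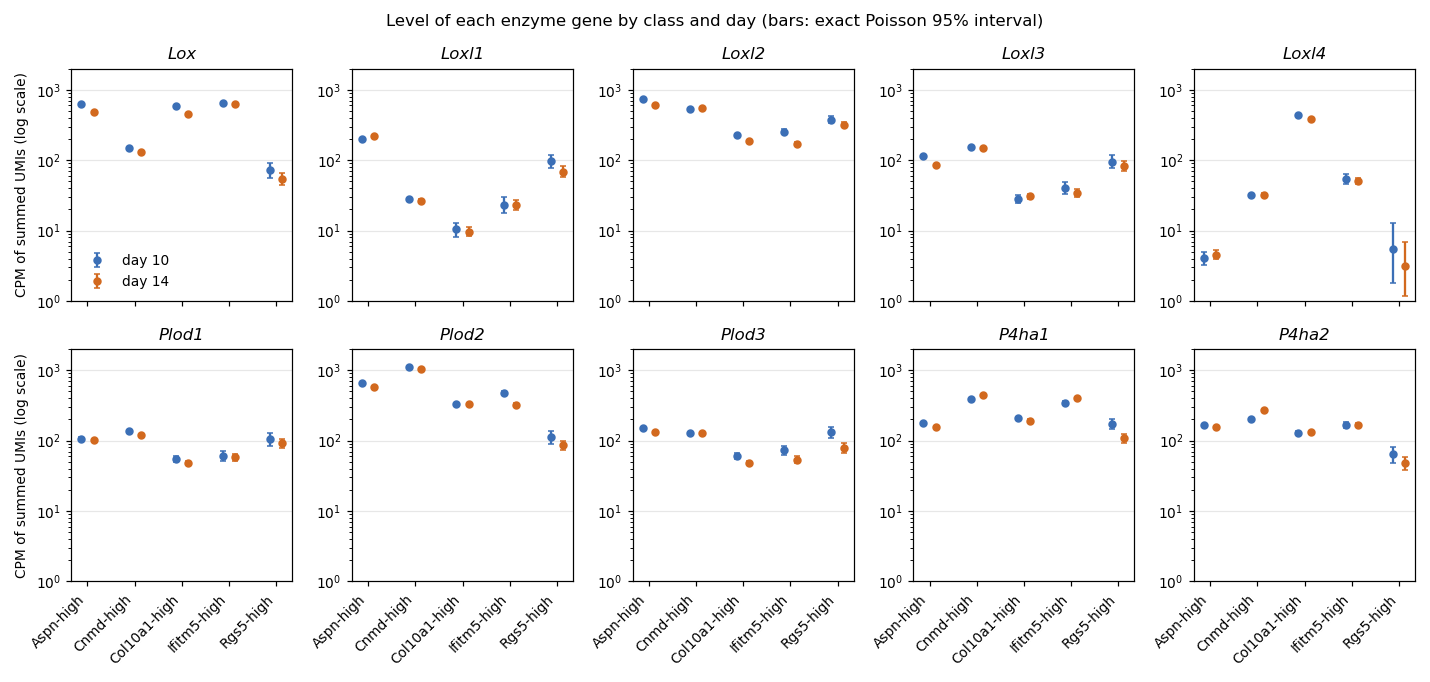
Level of each of the 10 genes in the 5 classes, as CPM of summed UMIs on a log axis, at day 10 (blue) and day 14 (orange), with exact Poisson 95% intervals. *Loxl1* is highest in *Aspn*-high cells (197 and 220.1 CPM), *Loxl4* in *Col10a1*-high cells (439.5 and 390.4 CPM), and *Plod2* is highest in *Cnmd*-high (1129 and 1039.8 CPM) and lowest in *Rgs5*-high cells (111 and 85.7 CPM).

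Among the lysyl hydroxylases, *Plod2* (ENSMUSG00000032374, chr9:92542223-92608428) encodes the enzyme that hydroxylates lysines of the collagen telopeptides, which set the type of cross-link. Its level was 1129 CPM (1119 to 1139) and 1039.8 CPM (1028 to 1052) in *Cnmd*-high cells. It had 650.1 and 578 CPM in *Aspn*-high, 479 and 323 CPM in *Ifitm5*-high, 329.6 and 331 CPM in *Col10a1*-high, and 111 and 85.7 CPM in *Rgs5*-high cells. *Plod2* was thus highest in the *Cnmd*-high class, 3.43- and 3.14-fold above *Col10a1*-high cells, and lowest in the *Rgs5*-high class, 5.87- and 6.74-fold below *Aspn*-high cells. At day 14 the *Ifitm5*-high and *Col10a1*-high levels did not differ beyond counting error (log2 ratio -0.04, -0.11 to 0.04).

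*Plod1* (ENSMUSG00000019055, chr4:147909753-147936767), which acts on lysines of the triple helix, had 135 and 122 CPM in *Cnmd*-high, 107 and 103 CPM in *Aspn*-high, and 105 and 92.6 CPM in *Rgs5*-high cells, compared with 61.0 and 57.9 CPM in *Ifitm5*-high and 55.5 and 48.9 CPM in *Col10a1*-high cells. *Plod3* (ENSMUSG00000004846, chr5:136987019-136996648), which also transfers sugars to hydroxylysine, had 151 and 133 CPM in *Aspn*-high, 128 and 129.7 CPM in *Cnmd*-high, and 132 and 79.4 CPM in *Rgs5*-high cells, compared with 72.5 and 53.9 CPM in *Ifitm5*-high and 59.8 and 48.0 CPM in *Col10a1*-high cells. Both genes were lower in the *Col10a1*-high and *Ifitm5*-high classes than in the *Aspn*-high class. For *Plod3* the *Col10a1*-high level was 2.53- and 2.76-fold below *Aspn*-high cells, and for *Plod1* it was 1.93- and 2.10-fold below, so that *Plod1* fell short of 2-fold at day 10. *Plod1* did not differ between *Rgs5*-high and *Aspn*-high cells beyond counting error (log2 ratio -0.03, -0.34 to 0.27, and -0.15, -0.38 to 0.07).

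Of the prolyl hydroxylase subunits, *P4ha1* (ENSMUSG00000019916, chr10:59323296-59373304, plus strand), the widely expressed catalytic subunit, had 384 CPM (378 to 389) and 444 CPM (436 to 452) in *Cnmd*-high cells. *Ifitm5*-high cells had 342 and 405 CPM, *Col10a1*-high cells 207 and 193 CPM, *Aspn*-high cells 179.5 and 158 CPM, and *Rgs5*-high cells 173 and 108 CPM. *P4ha1* was thus highest in the *Cnmd*-high and *Ifitm5*-high classes, with *Cnmd*-high cells 2.14- and 2.81-fold and *Ifitm5*-high cells 1.90- and 2.56-fold above *Aspn*-high cells. *P4ha2* (ENSMUSG00000018906, chr11:54100095-54131665, plus strand), the isoform known from chondrocytes and osteoblasts, had 205 and 268 CPM in *Cnmd*-high, 168 and 167 CPM in *Ifitm5*-high, 165 and 158 CPM in *Aspn*-high, 130.3 and 131 CPM in *Col10a1*-high, and 63.6 and 47.6 CPM in *Rgs5*-high cells. *Rgs5*-high cells stood apart, 2.60- and 3.31-fold below *Aspn*-high cells, while *Ifitm5*-high and *Aspn*-high cells did not differ beyond counting error (log2 ratio 0.03, -0.12 to 0.17, and 0.09, -0.01 to 0.18).

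Promoter sequences are shown for *Loxl4*, the member that differed most between classes, and for *P4ha1* and *P4ha2*, which were both highest in *Cnmd*-high cells. They are RefSeq sequences of GRCm38.p6 from 250 bases before to 50 bases after a start of the gene, 5′ to 3′ on its own strand, at chr19:42612757-42613056 (minus), chr10:59323046-59323345 (plus), and chr11:54100674-54100973 (plus). Capitals mark ACGTG on either strand, the core that hypoxia-inducible factors bind, which is also part of the E-box CACGTG.
Loxl4: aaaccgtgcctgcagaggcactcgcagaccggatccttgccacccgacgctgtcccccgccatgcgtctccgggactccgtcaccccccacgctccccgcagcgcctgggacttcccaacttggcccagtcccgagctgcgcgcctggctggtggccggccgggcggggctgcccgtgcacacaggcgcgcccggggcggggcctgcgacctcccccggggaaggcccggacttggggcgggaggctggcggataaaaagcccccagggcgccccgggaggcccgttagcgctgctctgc
P4ha1: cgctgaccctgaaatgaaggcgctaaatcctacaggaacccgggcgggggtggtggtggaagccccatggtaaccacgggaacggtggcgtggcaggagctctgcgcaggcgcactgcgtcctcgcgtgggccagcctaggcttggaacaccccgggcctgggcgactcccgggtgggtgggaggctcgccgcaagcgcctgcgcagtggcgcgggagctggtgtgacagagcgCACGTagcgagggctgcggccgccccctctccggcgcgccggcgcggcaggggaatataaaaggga
P4ha2: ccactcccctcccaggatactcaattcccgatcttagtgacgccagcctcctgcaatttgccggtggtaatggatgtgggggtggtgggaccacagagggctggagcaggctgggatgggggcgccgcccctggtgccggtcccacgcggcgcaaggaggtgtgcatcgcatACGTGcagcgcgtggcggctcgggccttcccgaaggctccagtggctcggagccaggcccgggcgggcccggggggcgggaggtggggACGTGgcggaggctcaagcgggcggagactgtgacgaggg
The core was found once in the window of *P4ha1*, 2 times in that of *P4ha2*, and not in that of *Loxl4*. The window of *Plod3* held 1 match, and that of *Plod1*, which was also highest in *Cnmd*-high cells, held none. Promoters of 5 of the 10 members were matched in all. Of 32851 promoters of the same length, 19.6% held the core. The RUNX letters TGTGGT (16.8% of promoters, either strand) were found in *Plod3* and *P4ha2* and the AP-1 letters TGANTCA (7.81%) in none of the 5. A match describes the letters of this window only.

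The members that differed by at least 2-fold on both days are given here for each class, beside the share of all genes that did. In *Cnmd*-high cells 2 of 10 members were higher than in *Aspn*-high cells (*Loxl4* and *P4ha1*), where 4.54% of all 12501 genes compared were, and 2 were lower (*Lox* and *Loxl1*), where 14.7% were. In *Col10a1*-high cells 1 was higher (*Loxl4*; 6.52% of all genes) and 4 were lower (*Loxl1*, *Loxl2*, *Loxl3*, and *Plod3*; 17.6%). In *Ifitm5*-high cells the same gene was higher (3.55%) and the same 4 were lower (15.2%). The *Loxl4* call there rests on the low *Aspn*-high level (4.04 and 4.55 CPM). *Ifitm5*-high cells had 54.2 and 50.8 CPM of *Loxl4*, and cells high for none of the 5 genes had 53.7 and 70.5 CPM. In *Rgs5*-high cells 0 were higher (7.23%) and 4 were lower (*Lox*, *Loxl1*, *Plod2*, and *P4ha2*; 8.39%). The members were selected with earlier results known, so these counts describe the list and are no test of it.

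The median log2 ratio over the members and over all genes shifted differently. In *Cnmd*-high cells the members' median was 0.32 and 0.51 at day 10 and day 14, and that of all genes was -0.34 and -0.36. In *Col10a1*-high cells the members had -0.97 and -0.94 compared with -0.24 and -0.32, in *Ifitm5*-high cells -0.63 and -0.83 compared with -0.38 and -0.38, and in *Rgs5*-high cells -0.62 and -0.83 compared with -0.02 and 0.03. The members as a list thus lay above the median gene in *Cnmd*-high cells and below it in the other 3 classes. Each member moved with the total used, by the same amount within a class and day, and so did the median gene. Without the 50 most abundant genes in the total it was -0.18 and -0.21, -0.02 and -0.08, -0.10 and -0.14, and -0.11 and -0.05 in the same order, and *P4ha1* was then also past 2-fold in *Ifitm5*-high cells, which made 2 members higher and 3 lower there.

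**Figure D2:**
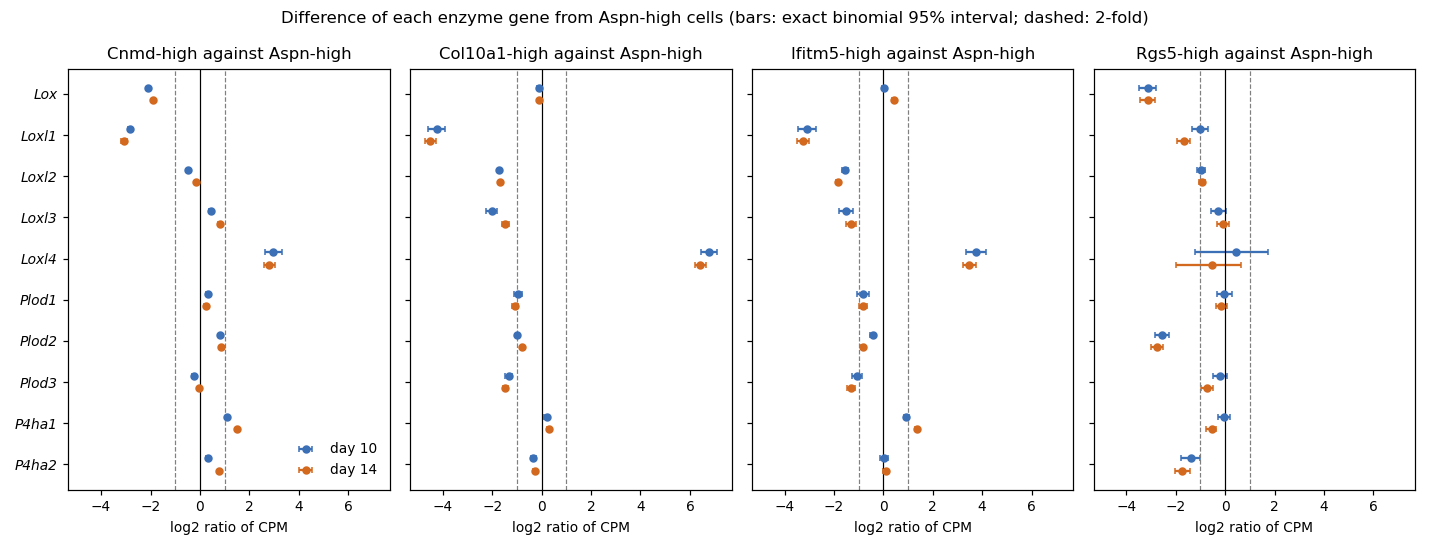
Log2 ratio of each gene in 4 classes to *Aspn*-high cells at day 10 (blue) and day 14 (orange), with exact binomial 95% intervals and dashed lines at 2-fold. *Loxl4* lies at 6.76 and 6.42 in *Col10a1*-high cells, *Loxl1* lies below -1 in all 4 panels on both days, and *Lox* and *Plod2* lie below -2.5 in *Rgs5*-high cells.

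The classes also differed in which enzyme of a family made up its UMIs. *Loxl2* was 43.8% and 43.4% of lysyl oxidase UMIs in *Aspn*-high cells at day 10 and day 14, 59.4% and 61.8% in *Cnmd*-high cells, and 58.3% and 60.5% in *Rgs5*-high cells, but 17.6% and 17.6% in *Col10a1*-high cells. *Lox* was 63.3% and 69.4% in *Ifitm5*-high cells and 45.3% and 41.9% in *Col10a1*-high cells, in which *Loxl4* made up another 34.2% and 36.6%. In *Aspn*-high cells *Loxl4* was 0.240% and 0.326%. The *Cnmd*-high and *Rgs5*-high classes therefore shared a high portion of *Loxl2*. The portion of *Lox* was highest in *Ifitm5*-high cells, and that of *Aspn*-high cells (37.5% and 34.3%) was not far below that of *Col10a1*-high cells. *Plod2* was 71.1% to 81.1% of lysyl hydroxylase UMIs in the 4 other classes, but 31.9% (26.8% to 37.3%) and 33.3% (29.1% to 37.6%) in *Rgs5*-high cells, where *Plod1* held 30.3% and 35.9% and *Plod3* 37.9% and 30.8%. *P4ha1* was 52.1% and 50.1% of the pair in *Aspn*-high cells and 59.7% to 73.1% elsewhere.

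**Figure D3:**
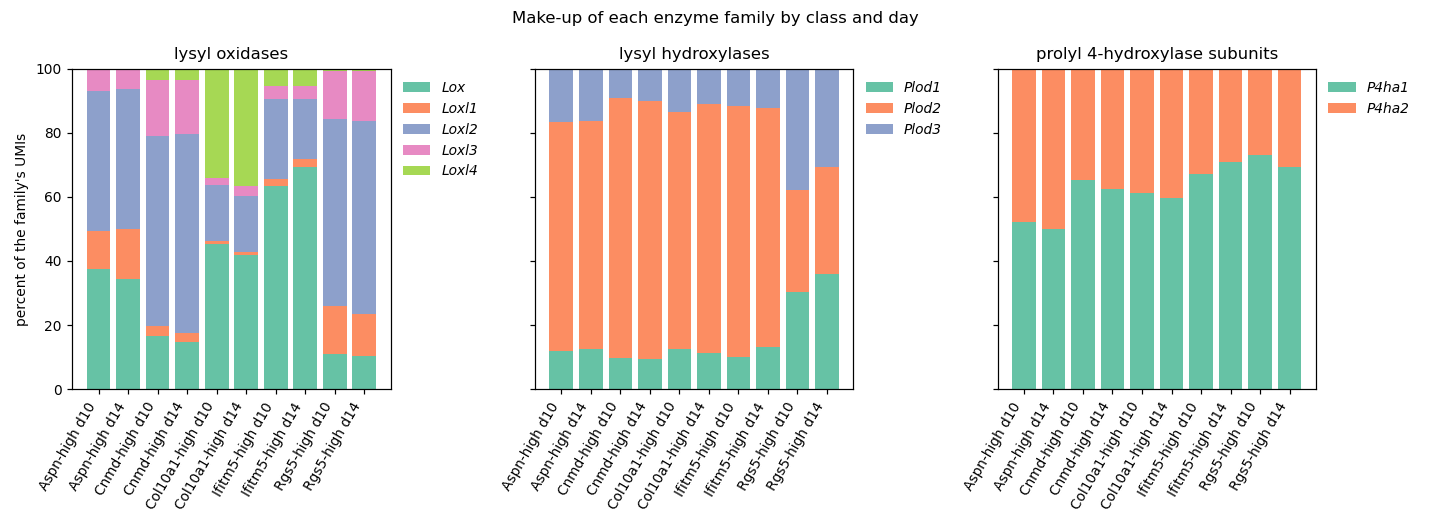
Percent of the UMIs of each enzyme family that belong to each gene, by class and day (d10, day 10; d14, day 14), as stacked bars that sum to 100. *Loxl4* takes 34.2% and 36.6% of lysyl oxidase UMIs in *Col10a1*-high cells, and *Plod2* takes 31.9% and 33.3% of lysyl hydroxylase UMIs in *Rgs5*-high cells.

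Relative to 8 of the collagen genes in the same cells, the order of the classes changed. UMIs of 8 collagen genes (*Col1a1*, *Col1a2*, *Col2a1*, *Col3a1*, *Col5a1*, *Col5a2*, *Col10a1*, and *Col11a1*) were 10.7% and 8.86% of all UMIs in *Ifitm5*-high cells and 2.23% and 1.53% in *Rgs5*-high cells. For every 1000 of these, *Rgs5*-high cells held 55.3 (52.1 to 58.6) and 61.6 (58.7 to 64.5) UMIs of the 10 members. *Aspn*-high cells held 48.7 and 44.4, *Cnmd*-high cells 36.7 and 43.6, *Col10a1*-high cells 28.3 and 29.4, and *Ifitm5*-high cells 20.0 and 21.7. *Rgs5*-high cells thus had the lowest levels of *Lox* and *Plod2* but the most enzyme UMIs per UMI of these 8 genes. *Ifitm5*-high cells had the fewest. Other collagen genes were not counted, so the order holds for these 8 only. *Col10a1* itself chose 1 of the classes, which adds to the collagen UMIs there. For *P4ha1* alone the values per 1000 were 7.76 and 7.06 in *Rgs5*-high, 4.90 and 6.69 in *Cnmd*-high, 3.20 and 4.58 in *Ifitm5*-high, 2.82 and 3.12 in *Col10a1*-high, and 2.97 and 2.79 in *Aspn*-high cells.

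Cells were also ordered by their own *Col10a1*, in 5 ranges that include cells outside the classes. *Loxl4* rose in step with the ranges at day 10, from 19.6 CPM in the 2180 cells with no *Col10a1* UMI to 27.7, 145, 287, and 571 CPM (547 to 595) in the 229 cells above 30000 CPM of *Col10a1*. At day 14 it went from 15.6 through 19.4, 180.4, and 299 to 508 CPM (492 to 524). *Loxl3* went the other way above 1000 CPM of *Col10a1*, from 131 through 52.2 to 25.2 CPM at day 10 and from 82.4 through 44.6 to 20.1 CPM at day 14. *Loxl2*, *Plod1*, *Plod2*, and *Plod3* were each lower above 10000 CPM than below it on both days. At day 14 *Loxl2*, *Loxl3*, and *Plod2* were already lower in the range of 1000 to 10000 CPM (318, 82.4, and 484 CPM) than in the range below it (533, 113, and 723 CPM). That step was smaller at day 10, from 615 to 546, from 148 to 131, and from 966 to 863 CPM.

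*P4ha1* and *P4ha2* differed between the days in that intermediate range. At day 10 its 405 cells had 394 CPM of *P4ha1* (379.8 to 408) and 342 CPM of *P4ha2* (329 to 356), above the ranges on either side, which had 327 and 223 CPM of *P4ha1* and 217 and 173 CPM of *P4ha2*. At day 14 its 1040 cells had 238 CPM of *P4ha1* and 180.4 CPM of *P4ha2*, below the range under it (292 and 216 CPM). The peak of day 10 was therefore not seen at day 14, and the make-up of the range was not compared between the days.

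Ordered by *Ifitm5*, cells above 1000 CPM of it had 749 CPM (705 to 796) of *Lox* at day 10 and 713 CPM (688 to 739) at day 14, compared with 482 and 471 CPM in cells with 300 to 1000 CPM. *P4ha1* had 375 and 469.7 CPM there, compared with 284 and 274 CPM. *Loxl3* had 27.9 and 26.8 CPM, compared with 56.6 and 50.5 CPM, and *Plod2* at day 14 had 280.2 CPM, compared with 426 CPM. The cells with most *Ifitm5* thus had more *Lox* and *P4ha1* and less *Loxl3* than cells with less of it. *Loxl4* did not rise with *Ifitm5*. It had 61.5 and 86.7 CPM in cells with no *Ifitm5* UMI and 58.0 and 46.7 CPM in the top range. The top ranges held 81 and 273 cells.

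**Figure D4:**
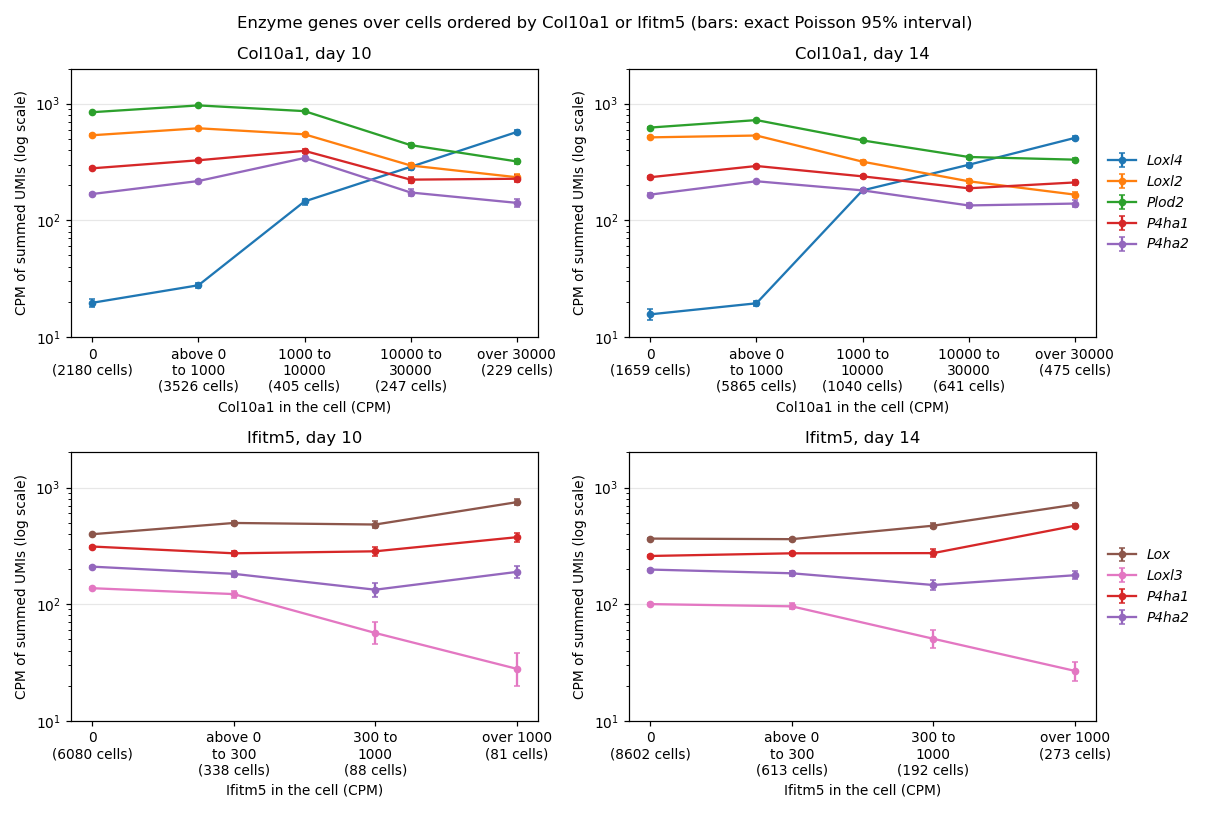
Levels (CPM of summed UMIs, log axis) over cells grouped by their *Col10a1* (top) or *Ifitm5* (bottom) at day 10 (left) and day 14 (right), with exact Poisson 95% intervals and the number of cells in each range. *Loxl4* climbs with *Col10a1* to 571 and 508 CPM, *P4ha1* and *P4ha2* peak in the range of 1000 to 10000 CPM at day 10 only, and *Lox* is highest in the top *Ifitm5* range (749 and 713 CPM).

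Between day 10 and day 14 few members changed by 1.5-fold within a class. With 10 members, a count of 0 does not set the list apart from all genes at the shares given here. At 1.5-fold in either direction, 0 of 10 members differed in *Aspn*-high cells (10.5% of all genes compared did), 0 in *Cnmd*-high cells (9.48%), 0 in *Col10a1*-high cells (11.6%), and 0 in *Ifitm5*-high cells (10.2%). In *Rgs5*-high cells 2 of the 9 with enough UMIs were lower at day 14 (13.5% of all genes differed). These were *Plod3*, from 132 to 79.4 CPM (log2 ratio -0.73, -1.09 to -0.37), and *P4ha1*, from 173 to 108 CPM (-0.68, -0.99 to -0.37), and both intervals included less than 1.5-fold. The next largest differences were in *Ifitm5*-high cells, 1.48-fold lower at day 14 for *Loxl2* and for *Plod2*. In *Aspn*-high cells *Lox* was 1.32-fold and *Loxl3* 1.34-fold lower at day 14, and in *Cnmd*-high cells *P4ha2* was 1.31-fold higher. Day and library cannot be told apart here.

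For *Loxl4*, *Plod2*, and *Loxl1* the few class cells of day 7 gave UMIs in the same places as at day 10 and day 14. In the 5 *Col10a1*-high cells *Loxl4* had 146 of 117221 UMIs, and in the 13 *Aspn*-high cells it had 0 of 228478, where a count of 0 allows up to 3. *Plod2* had 2071 of 965434 UMIs in the 47 *Cnmd*-high cells and 108 of 228478 in *Aspn*-high cells. *Loxl1* had 47 UMIs in the *Aspn*-high, 19 in the *Cnmd*-high, 0 in the *Col10a1*-high, and 2 in the *Ifitm5*-high cells. Not all members kept the order of the later days. *Loxl2* had 930 of 965434 UMIs in *Cnmd*-high and 125 of 228478 in *Aspn*-high cells, and *Plod3* had 165 and 33. For both genes the *Cnmd*-high share was thus the larger, whereas on the later days the *Aspn*-high level was. The hematopoietic markers in these cells are given above, and their part in these counts was not tested.

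Genes that act beside the members were described as a list of 16, with their levels in the same cells. In *Cnmd*-high cells 3 of 16 were at least 2-fold higher than in *Aspn*-high cells and 3 lower, with a list median of 0.17 (log2). In *Col10a1*-high cells 3 were higher and 9 lower (median -1.21), in *Ifitm5*-high cells 2 and 1 (0.01), and in *Rgs5*-high cells 1 and 2 (-0.46). The percentages of all genes given above for each class hold for these counts too. *P3h2*, a prolyl 3-hydroxylase, went from 10.4 and 10.2 CPM in *Aspn*-high to 86.3 and 113 CPM in *Cnmd*-high cells. *Pcolce2*, a procollagen C-proteinase enhancer, went from 36.2 and 27.4 CPM in *Aspn*-high to 695 and 655 CPM in *Col10a1*-high cells, while its paralog *Pcolce* went from 885 and 803 to 28.1 and 37.2 CPM. The paralogs thus differed in opposite directions between these classes. *P4ha3*, a further prolyl 4-hydroxylase subunit, had 93.9 and 97.3 CPM in *Aspn*-high cells and 2.32 and 2.40 CPM in *Col10a1*-high cells. *P4hb*, the partner of all P4ha subunits, ranged from 434 CPM in *Col10a1*-high to 869 CPM in *Cnmd*-high cells at day 10. At day 14 it ranged from 322 to 727 CPM in the same classes. *Adamts2*, the procollagen N-proteinase, was highest in *Rgs5*-high cells, with 489 and 420.2 CPM compared with 97.9 and 98.8 CPM in *Aspn*-high cells.

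Of 9 substrate genes, 3 were at least 2-fold higher and 5 lower in *Cnmd*-high cells, 3 and 6 in *Col10a1*-high, 2 and 3 in *Ifitm5*-high, and 0 and 4 in *Rgs5*-high cells. *Col10a1* among them chose the *Col10a1*-high class. Of all genes compared, 4.54% and 14.7%, 6.52% and 17.6%, 3.55% and 15.2%, and 7.23% and 8.39% were higher and lower in these 4 classes. *Col1a1* was lowest in *Col10a1*-high cells (2571 and 1825 CPM) and highest in *Ifitm5*-high cells (46116 and 41910.2 CPM), whereas *Lox*, at 583 and 447 compared with 641 and 634 CPM, differed far less between these classes. *Eln*, which encodes elastin and is a substrate of *Loxl1*, had 80.1 and 25.0 CPM in *Aspn*-high and 32.9 and 87.3 CPM in *Rgs5*-high cells, and at most 3.14 CPM in the other classes. *Eln* and *Loxl1* thus had their higher levels in the same pair of classes, though the order of these classes for *Eln* turned between the days.

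The genes most like each member were found by Pearson correlation of log2(CPM + 10) over 10 points (5 classes on 2 days) among 12272 genes. The points share libraries and depth, and the values describe likeness only. *Loxl1* was most like *Antxr1* (0.988), *Palld* (0.985), and *Postn* (0.984), the periosteal marker of the study. *Loxl4* was most like *Tgfa* (0.992), *Nhej1* (0.987), and *Lgr6* (0.983), and *Lox* like *Avpi1* (0.983), *Ptprd* (0.948), and *Cemip* (0.945). Several members had each other among their closest genes. *Loxl3* and *Plod1* were each other's closest (0.987), and *Loxl2* was the third closest to *Plod3* (0.959). *Plod2* was closest to *Chst12* (0.988), *Capn6* (0.984), and *Plscr1* (0.980), and had 0.954 with *P4ha2*. *P4ha2* was closest to *Tmem238* (0.991), and *P4ha1* to *Rplp1* (0.975). *Loxl4* had its lowest value among the members with *Loxl1* (-0.858).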

How the data were processed

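The deposited matrices hold raw UMI counts per gene and cell for 3 libraries, made by the authors with Cell Ranger and without normalization. The submitters' notes name Cell Ranger 3.0, mm10, and a v2 kit, the matrix headers software 3.1.0, and the study's methods another kit and version, so the exact pipeline is uncertain. The study's limits on cells were applied (500 to 5000 genes, at most 10% mitochondrial and 5% hemoglobin UMIs). No doublet caller was run, and cells high for more than 1 class gene were kept apart. A class needed at least 3 UMIs and 2000 CPM of *Aspn*, *Cnmd*, or *Rgs5*, 10000 of *Col10a1*, or 300 of *Ifitm5*. Between 5 and 983 cells per gene lay below a cutoff by less than 2-fold at day 10 and day 14, and 9 to 1594 above it by less than 2-fold.

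UMIs were summed per class and library, which needs at least 50 cells, and ratios were compared for genes with at least 50 UMIs over both sides. A gene was called at 2-fold on both days, or at 1.5-fold between days. All 10 members passed in each comparison of classes. For shares of cells, each cell was thinned to 2000 UMIs. With 1 library per day, cells were not treated as replicates, and no p-value was computed. Within the limits the libraries held 55187609, 113618580, and 154573230 UMIs (median 5056, 17370.0, and 15802 per cell). The members, the cutoffs, and the lists (partners, substrates, hypoxia response, markers) were chosen with earlier results of these data known. The genes named are the members, the 3 closest to each, and the ends of each list, and others were named after their values were seen. Positions are from GENCODE M21 (GRCm38) and promoters from RefSeq. Python 3.11.15, numpy 2.4.6, scipy 1.17.1, pandas 2.3.3, and matplotlib 3.10.9 were used, and the ratio script was tested on simulated data.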

Additional observations from a re-analysis of the deposited data

Results flagged for a closer look

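The *Ptprc*-positive cells of day 7, which enter no comparison above, held UMIs of all 10 members, above what a count of 0 would allow. Summed over 6570 cells with a median of 5045 UMIs, *Plod3* had 31.5 CPM (29.9 to 33.1) and was seen in 16.7% of cells. *Plod2* had 26.7 CPM, *Lox* 23.8 CPM, and *Plod1* 14.5 CPM, and were seen in 3.09%, 2.44%, and 8.96% of cells. *P4ha1* had 13.8 CPM, *Loxl2* 13.4 CPM, *P4ha2* 10.5 CPM, *Loxl3* 5.25 CPM, *Loxl4* 3.26 CPM, and *Loxl1* 2.46 CPM. The part of free RNA in these values was not tested.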

How the results depend on the processing

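The counts of members higher or lower than in *Aspn*-high cells at 2-fold, in 4 classes, were computed under 12 other settings. The count of members higher in *Ifitm5*-high cells was 2 in place of 1 without the 50 most abundant genes in the total, which scales its ratios up, and 2 at a 1.5-fold threshold, which admits *P4ha1*. All other counts stayed within 1.5 times the reported one, among them those with class cutoffs halved or doubled, no limits on cells, a minimum of 10 UMIs, and, as settings added after seeing the data, without cells that had a hematopoietic UMI or under 5000 UMIs. *Loxl1* in *Rgs5*-high cells, the call nearest to 2-fold, was not called with cutoffs halved, with cells high for more than 1 gene kept, or with no limits on cells. Of 400 class ratios recomputed, 316 stayed inside their counting interval, and 10 changed sign, none of them a called ratio. The largest move was 0.68 (log2), for *Lox* in *Cnmd*-high cells at doubled cutoffs, from -1.99 to -2.67. Of 500 ratios between the days, 441 stayed inside and 36 changed sign, none of them for the 2 called differences. The largest move was 1.52 (log2), for *Loxl4* in *Rgs5*-high cells, which had few UMIs. It went from -0.79 to 0.73 with cells high for more than 1 gene kept. Shares of cells were higher without thinning.

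No paired analysis was possible because each day has 1 library. With 70 and 180 *Rgs5*-high cells and 5 and 6 *Loxl4* UMIs in them, a difference of *Loxl4* from *Aspn*-high cells was not detectable at this depth. Counting intervals leave out the variation between animals, which 1 library per day does not measure, and *Aspn*-high cells of day 14, the common reference, held most hematopoietic RNA (242 CPM over 6 markers).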

Other observations

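Genes known to rise when cells lack oxygen were described in the same classes, as a list of 12 that holds none of the members. In *Cnmd*-high cells 3 of 12 were at least 2-fold higher than in *Aspn*-high cells on both days and 0 lower (list median 0.72, log2), where 4.54% and 14.7% of all genes compared were. In *Col10a1*-high cells 4 of the 11 compared were higher and 0 lower (0.65), where 6.52% and 17.6% of all genes were. In *Ifitm5*-high cells 0 of 11 were past 2-fold in either direction (-0.04; all genes, 3.55% and 15.2%), and in *Rgs5*-high cells 1 was higher and 2 lower (-0.16; all genes, 7.23% and 8.39%). *Vegfa*, the angiogenic factor, had 42.6 and 34.8 CPM in *Aspn*-high, 118 and 56.8 CPM in *Cnmd*-high, and 417 and 341 CPM in *Col10a1*-high cells. *Adm*, which encodes adrenomedullin, had 45.4 and 53.4 CPM in *Col10a1*-high cells and at most 11.1 CPM in the other classes. The glycolytic gene *Pgk1* was highest in *Cnmd*-high cells, with 432 and 526 CPM compared with 196 and 209 CPM in *Aspn*-high cells. *Bnip3* had 149 and 167 CPM in *Cnmd*-high, 187 and 187 CPM in *Col10a1*-high, and 9.87 and 16.9 CPM in *Rgs5*-high cells. Of the 5 classes, *Cnmd*-high cells had the highest level of *P4ha1*, *Plod2*, and *Pgk1*, and *Col10a1*-high cells that of *Vegfa*, *Adm*, and *Bnip3*. In *Ifitm5*-high cells *P4ha1* was 1.90- and 2.56-fold above *Aspn*-high cells, with *Pgk1* at 123 and 181 CPM. A link between the members and this list was not tested.

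In cells high for none of the 5 genes, *P4ha2* (258 CPM) and *Plod3* (163 CPM) were above all 5 classes at day 10, and at day 14 all 10 members lay between the lowest and the highest class. At day 10 these 2100 cells had 855 CPM of *Plod2*, 588 CPM of *Lox*, 318 CPM of *P4ha1*, and 53.7 CPM of *Loxl4*, and at day 14 the 3491 cells had 637, 378, 279, and 70.5 CPM, with *P4ha2* at 221 and *Plod3* at 116 CPM. The 374 such cells of day 7, with a median of 3600.0 UMIs, had 808 CPM of *Plod2*, 789 CPM of *Lox*, 350.4 CPM of *P4ha1*, and 113 CPM of *Loxl4*. Without thinning, 36.9% of them had a UMI of *Plod2* and 36.4% one of *Lox*, compared with 93.0% and 86.8% at day 10. Most cells of the day 7 library were *Ptprc*-positive, and whether hematopoietic cells without a *Ptprc* UMI were among the 374 was not tested.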
